A study of Rattus norvegicus with 6 samples.

Results

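Collagens, laminins and nidogens, the proteins that build the matrix around brain vessels, were followed in CD163+ macrophages sorted from the rat brain. Members were the genes whose symbol in the array annotation was Col with a number, a and a number, or Lama, Lamb or Lamc with a digit, together with Nid1 and Nid2. This rule took 53 of the 14217 genes that had a probe set of their own. They comprised 11 fibrillar collagens, 23 other collagens and 19 genes of the basement membrane, the last made up of 7 collagens (Col4a1, Col4a2, Col4a4, Col4a5, Col4a6, Col15a1 and Col18a1), 10 laminin chains and 2 nidogens.

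The ischemia group was 3 adult male Sprague-Dawley rats (64, 65 and 66) in which the middle cerebral artery was occluded for 1 h and reperfused for 16 h. The control group was 3 adult male Sprague-Dawley rats without ischemia (63, 68 and 69). In both groups the right hemisphere was dissociated, CD11b+CD163+ cells were sorted by flow cytometry, and the RNA of each rat was hybridized to 1 Affymetrix rat array, so that each value below belongs to 1 animal and each group was seen at 1 time. Values are on the log2 scale after RMA, which corrects background, equalizes the arrays and summarizes the probes of a probe set, and their precision is limited by the number of rats.

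Basement membranes are thin sheets under endothelium and around vessels, built from a laminin network and a collagen IV network that nidogens help to link. Laminins are trimers of an alpha, a beta and a gamma chain, and collagens XV and XVIII sit in vascular basement membranes, and cleavage of collagen XVIII releases endostatin. Fibrillar collagens I, III and V form the fibers of the meninges and of the outer vessel wall and are made mainly by fibroblasts, next to which perivascular and meningeal macrophages lie.

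Promoter sequences were printed for the collagens that rose, Col15a1 and Col18a1, and for the stretch between the starts of Col4a1 and Col4a2, which are read in opposite directions with starts 77 bases apart. They come from RefSeq (build GRCr8, windows listed for 42 of the 53 members) and are given 5′ to 3′ on the plus strand. The first is the 250 bases before the Col15a1 start, chr5:66297296-66297545, the second the 250 bases before the Col18a1 start, chr20:11473395-11473644, and the third the 76 bases at chr16:84885521-84885596. Capitals mark matches, on either strand, to CCAAT, to the GC box GGGCGG, to the hypoxia response core (ACGTG or GCGTG) or to TATAAA.
Col15a1: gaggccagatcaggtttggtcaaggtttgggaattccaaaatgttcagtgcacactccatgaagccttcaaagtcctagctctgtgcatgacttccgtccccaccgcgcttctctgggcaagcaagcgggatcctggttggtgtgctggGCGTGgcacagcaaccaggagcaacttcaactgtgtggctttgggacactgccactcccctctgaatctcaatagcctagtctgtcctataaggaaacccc
Col18a1: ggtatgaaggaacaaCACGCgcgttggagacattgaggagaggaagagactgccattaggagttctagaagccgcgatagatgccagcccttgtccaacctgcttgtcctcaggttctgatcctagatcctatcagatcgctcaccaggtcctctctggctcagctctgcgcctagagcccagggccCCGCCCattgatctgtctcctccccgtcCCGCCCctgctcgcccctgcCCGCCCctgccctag
Col4a1 and Col4a2: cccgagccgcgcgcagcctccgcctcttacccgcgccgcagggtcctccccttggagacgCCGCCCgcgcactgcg
The Col15a1 window held 1 hypoxia response core, the Col18a1 window 1 hypoxia response core and 3 GC boxes, and the stretch between Col4a1 and Col4a2 1 GC box, with no overlapping matches. A hypoxia response core stood in 17 of the 42 member windows (40.5%) and in 37.9% of 27457 rat windows of the same length, and a GC box in 24 (57.1%) and 32.4%. CCAAT stood in 12 member windows (28.6%) and in 34.3% of all windows, and TATAAA in 5 (11.9%) and 13.1%. The median share of the letters G and C was 59% in member windows and 52% in all windows. No window was listed for Lamb2, Nid2, Col3a1 or Col1a1, so the member shares leave these genes out. A match describes the letters in the window and is not a site of binding.

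Most of the matrix genes gave signals in the range of a set of genes that belong to other tissues. The background level was set from 34 genes that belong to liver, muscle, pancreas, testis and other tissues, as the value that 90% of their readings did not exceed, which was 7.81. Of the 53 members, 41 had means at or below it in both groups, 4 lay above it in both groups (Lamb2, Lamc1, Col1a2 and Col17a1), and 8 crossed it. Col15a1, Col18a1 and Col4a2 lay above it in ischemia but not in control rats, and Col1a1, Col3a1, Col5a1, Col11a2 and Col20a1 in control but not in ischemia rats. Probe sets differ in how strongly they bind, so this level is a guide and not a limit of detection. Myh1, a muscle myosin in that list, read 12.99 on average, and 35 members were near background when it was left out, a choice made after its values were seen.

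**Figure D1:**
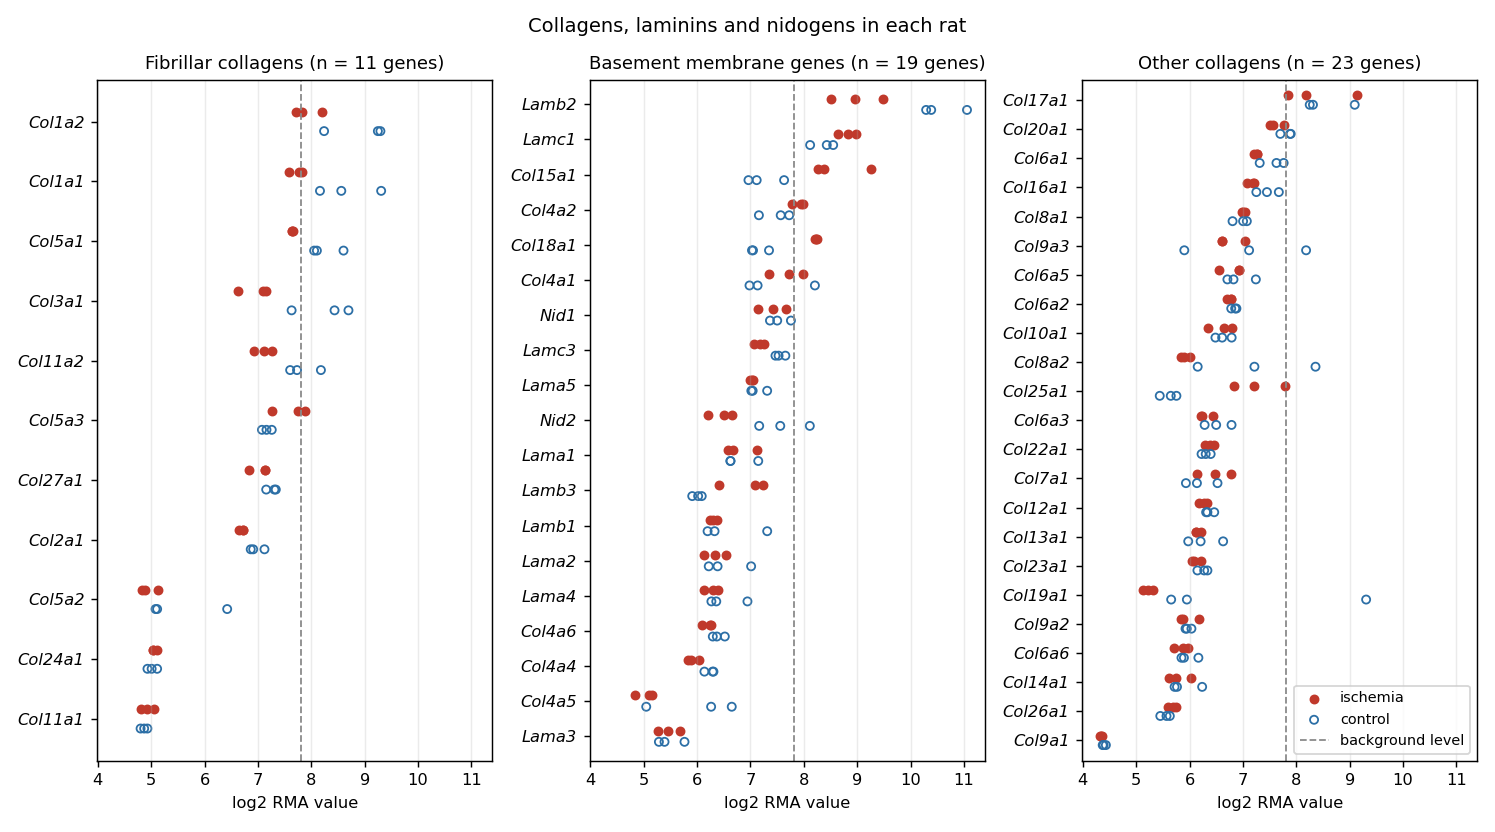
Log2 RMA value (x axis) of each of the 53 members in 3 ischemia rats (red, filled) and 3 control rats (blue, open), by group of genes, with the background level of 7.81 as a dashed line. Most genes lie left of the line in both groups. Among the fibrillar collagens Col1a1, Col1a2, Col2a1, Col3a1, Col5a1, Col11a2 and Col27a1 have every ischemia rat below every control rat.

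Counted over all 53 members, whether bright or dim, the 3 ischemia rats all lay below the 3 control rats for 18 members (34%), against 19.1% of all 14217 genes. They all lay above the controls for 7 members (13.2%), against 26.8% of all genes, and the groups overlapped for 28. The median log2 fold change of the 53 members, ischemia over control, was -0.13, beside 0.0024 over all genes. In sorted cells, fewer cells of a type and less RNA per cell cannot be told apart in any of these differences. An exact permutation test of 3 against 3 rats cannot go below p = 0.1, so single genes were tested with limma, which shares the spread across genes.

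For 19 members at least 3 arrays exceeded the low-signal limit of 7.16, and these entered limma with 9928 genes in all. At a limma adjusted p under 0.01, Col15a1 and Col18a1 rose and Lamb2, Nid2 and Col3a1 fell, and 14 did not pass. The share of all tested genes that rose was 16.8%, against 2 of 19 members (10.5%), and the share that fell was 5.99%, against 3 of 19 (15.8%), so the shares of members rest on few genes. Col3a1 and Nid2, which are among the 3 that fell, passed the low-signal limit only through the 3 control rats. The direction of these calls was therefore not independent of the filter. Of all calls, 73.7% were higher, against 60.1% after the quantile normalization was repeated and 21% after the arrays were centred on 42 ribosomal protein genes, where the median of the tested genes was -0.34 beside 0.10 as deposited. With that centring no member rose and 7 fell, 5 of them fibrillar.

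**Figure D2:**
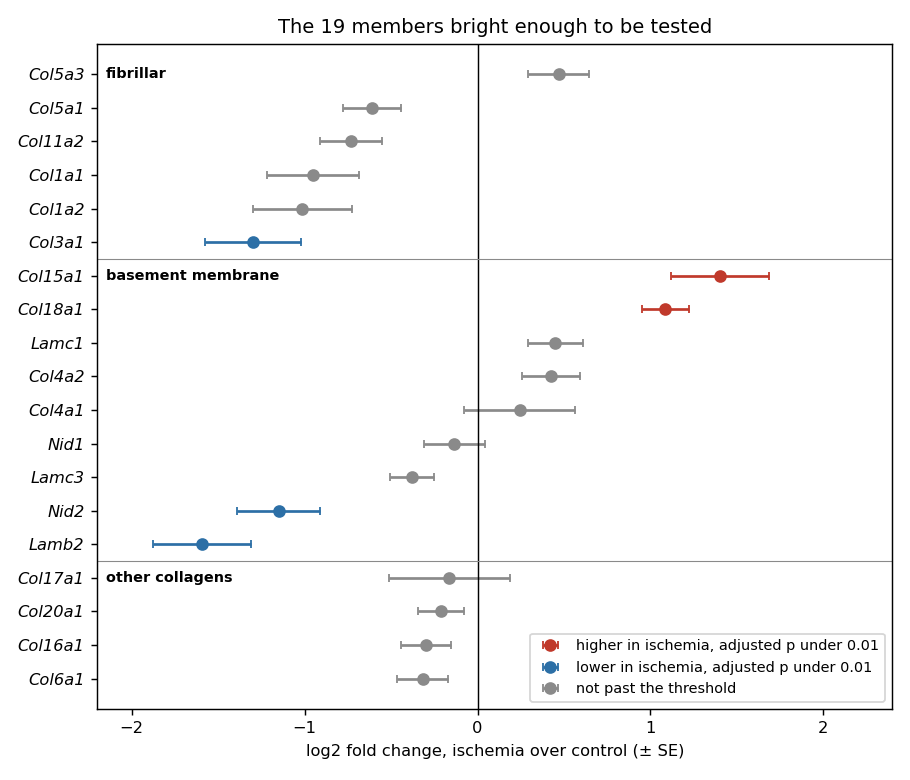
Log2 fold change, ischemia over control, with its standard error for the 19 members tested, by group of genes, with those at a limma adjusted p under 0.01 in red (higher) and blue (lower). Collagens XV and XVIII stand at 1.40 and 1.09, and Lamb2, Nid2 and Col3a1 between -1.60 and -1.15.

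The fibrillar collagens were lower after ischemia more often than higher. For 7 of the 11 genes (63.6%) every ischemia rat was below every control rat, against 19.1% of all genes, for 1 the reverse held, and 3 overlapped. Their median log2 fold change was -0.59, and it was -0.58 with arrays centred on their median, -0.54 with the quantile normalization repeated and -1.04 with ribosomal centring. Without control rat 63 it was -0.32. Of the 6 that were tested, 1 fell, none rose and 5 did not pass in limma. Among all tested genes 5.99% fell and 16.8% rose. An unadjusted limma p was under 0.05 for 5 that were lower and 1 that was higher. It was under 0.05 for 5014 of all 9928 tested genes, in either direction.

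Col3a1, the chain of collagen III, which forms the fine fibers of vessel walls, was 7.09, 6.62 and 7.15 in ischemia rats 64, 65 and 66, against 8.70, 8.43 and 7.63 in control rats 63, 68 and 69. The groups did not overlap, and control rats 63 and 68 stood highest. The log2 fold change was -1.30 (SE 0.28, limma adjusted p = 0.00784, n = 3 rats each). It was no longer past the threshold without any 1 of the ischemia rats, without control rat 63 or without control rat 68, with adjusted p between 0.0117 and 0.0331, and stayed past it without control rat 69.

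The chains of collagen I, the main fiber of the meninges, had ischemia rats below control rats too, without passing the test. Col1a1 was 7.77, 7.82 and 7.58 in ischemia rats, against 8.56, 9.31 and 8.16 in control rats, a log2 fold change of -0.95 (SE 0.27, limma adjusted p = 0.0226). Col1a2 was 7.72, 7.82 and 8.20 in ischemia rats, against 9.25, 9.29 and 8.24 in control rats, a log2 fold change of -1.01 (SE 0.29, limma adjusted p = 0.0237). Control rat 69 lay close to the ischemia rats in Col1a2. Without that rat, limma adjusted p was 0.00999 for Col1a1 and 0.00375 for Col1a2, and 3 fibrillar collagens fell. The second probe set of Col1a2 had groups apart in the same direction (log2 fold change -1.69), while that of Col1a1 overlapped (-0.70), both too dim to be tested.

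Col5a1, a chain of collagen V, which sits inside collagen I fibers and limits their width, was 7.66, 7.64 and 7.63 in ischemia rats, against 8.05, 8.10 and 8.60 in control rats. Its ischemia values were close together and below every control value, with a log2 fold change of -0.61 (SE 0.17, limma adjusted p = 0.0209). Its second probe set gave -0.57, again with the groups apart. Col11a2, a chain of the cartilage collagen XI, was 7.11, 7.27 and 6.93 in ischemia rats, against 8.18, 7.60 and 7.73 in control rats (log2 fold change -0.73, SE 0.18, limma adjusted p = 0.0134). The groups did not overlap.

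Col5a3, another collagen V chain, had the opposite order, 7.89, 7.74 and 7.27 in ischemia rats, against 7.07, 7.26 and 7.16 in control rats (log2 fold change 0.47, SE 0.18, limma adjusted p = 0.064). Its group means were both near background. The other 5 fibrillar collagens (Col2a1, Col5a2, Col11a1, Col24a1 and Col27a1) were too dim to be tested, with values between 4.80 and 7.33. Of these, Col2a1 and Col27a1 had ischemia values below all control values, by 0.27 and 0.23 on the log2 scale in the means.

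**Figure D3:**
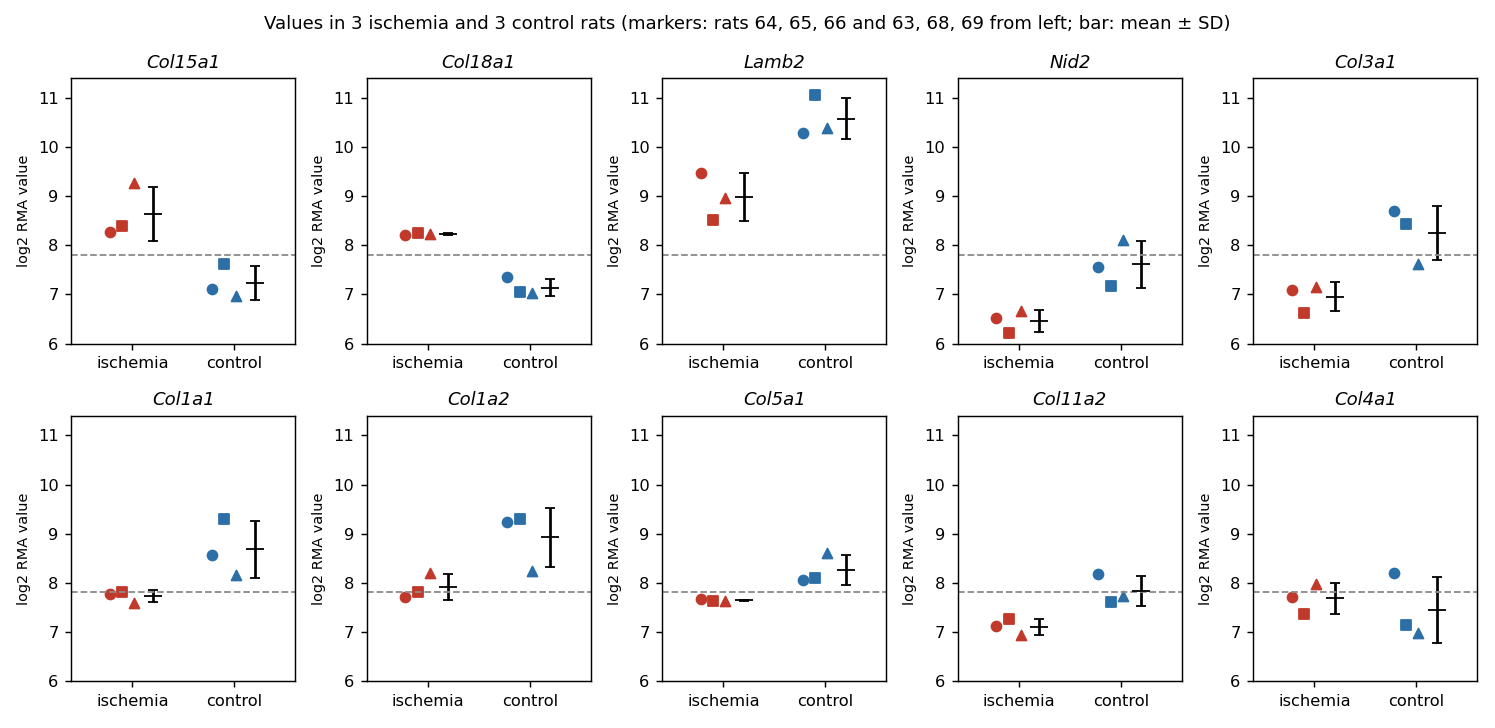
Log2 RMA values (y axis) of 10 members in 3 ischemia rats and 3 control rats, 1 marker a rat, with the group mean ± SD (black) and the background level of 7.81 (dashed). Ischemia rats lie above control rats in Col15a1 and Col18a1 and below them in Lamb2, Nid2, Col3a1, Col1a1, Col1a2, Col5a1 and Col11a2, and the groups overlap in Col4a1.

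The basement membrane genes moved in both directions. For 5 of the 19 genes (26.3%) every ischemia rat was above every control rat, against 26.8% of all genes, and for 5 (26.3%) the reverse held, against 19.1%, so neither share was far from that of all genes. Collagens XV and XVIII rose, and the laminin beta 2 chain and nidogen 2 fell. The median log2 fold change was -0.13, and -0.58 with ribosomal centring.

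Col15a1, the chain of collagen XV, which joins basement membranes to the fibers outside them, was 8.27, 8.39 and 9.26 in ischemia rats, against 7.12, 7.63 and 6.96 in control rats. Ischemia rat 66 stood highest, and the groups did not overlap. The log2 fold change was 1.40 (SE 0.29, limma adjusted p = 0.00639), and a second, dimmer probe set gave 1.07 with the groups apart. The call did not hold without ischemia rat 65 or 66 or without any 1 control rat, with adjusted p between 0.0110 and 0.0266.

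Col18a1, the chain of collagen XVIII and source of endostatin, was 8.20, 8.25 and 8.23 in ischemia rats, against 7.35, 7.05 and 7.03 in control rats. The ischemia rats were nearly equal and all above the controls. The log2 fold change was 1.09 (SE 0.13, limma adjusted p = 0.000971), and it was past the threshold whichever rat was left out. Its second probe set gave 0.25, also with the groups apart but not past the threshold (limma adjusted p = 0.143 over all probe sets). With ribosomal centring the log2 fold change was 0.64 and the adjusted p 0.0654.

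The collagen IV chains, which form the network of every basement membrane, did not pass. Col4a1 was 7.71, 7.36 and 7.98 in ischemia rats, against 8.21, 7.13 and 6.98 in control rats (log2 fold change 0.24, SE 0.32, limma adjusted p = 0.567). Col4a2, which shares the promoter stretch printed above, was 7.95, 7.78 and 7.99 in ischemia rats, against 7.73, 7.57 and 7.16 in control rats (log2 fold change 0.42, SE 0.17, limma adjusted p = 0.0779). The groups were apart in Col4a2 and overlapped in Col4a1, where control rat 63 had the highest value of all. Col4a4, Col4a5 and Col4a6, chains with a narrower tissue range, were too dim to be tested. Every ischemia rat was below every control rat in Col4a4 (-0.33 in the log2 means) and Col4a6 (-0.20), and the groups overlapped in Col4a5 (-0.96). Col4a1 and Col4a2 changed sign with ribosomal centring, to -0.20 for Col4a1 and -0.018 for Col4a2.

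Among the laminins, Lamb2, the beta 2 chain found in vessel and muscle basement membranes, was 9.48, 8.51 and 8.96 in ischemia rats, against 10.29, 11.06 and 10.39 in control rats. It was above the background level in every rat, and the groups did not overlap. The log2 fold change was -1.60 (SE 0.28, limma adjusted p = 0.00366). Without ischemia rat 65 or 66 or without any 1 control rat the adjusted p lay between 0.0101 and 0.0131, just short of the threshold.

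Lamc1, the gamma 1 chain shared by most laminins, was 8.64, 8.83 and 8.98 in ischemia rats, against 8.55, 8.43 and 8.12 in control rats (log2 fold change 0.45, SE 0.16, limma adjusted p = 0.0543). The groups lay apart by a narrow gap, and a second probe set overlapped (0.27, limma adjusted p = 0.307 over all probe sets). Lamc3, the gamma 3 chain, was near background in both groups and did not pass (log2 fold change -0.38, SE 0.13, limma adjusted p = 0.0413). Lamb1, the beta 1 chain of most vessel laminins, was too dim to be tested, with 6.23, 6.37 and 6.29 in ischemia rats, against 6.20, 6.33 and 7.31 in control rats. Only control rat 69 stood apart in Lamb1.

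The alpha chains, Lama1 to Lama5, were all too dim to be tested, and in none of them were the groups apart on the probe set used. The dimmer probe sets of Lama5 gave 0.43 and 0.83, against -0.10 for the one used, so the direction of Lama5 was not settled. Lamb3, the beta chain of the skin laminin, was also too dim, with 6.41, 7.08 and 7.24 in ischemia rats, against 5.91, 6.09 and 6.02 in control rats. Its ischemia values were all higher but below the background level.

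Nid2, nidogen 2, a linker of the laminin and collagen IV networks, was 6.51, 6.21 and 6.66 in ischemia rats, against 7.56, 7.16 and 8.11 in control rats (log2 fold change -1.15, SE 0.24, limma adjusted p = 0.00716). The groups did not overlap, but both means were near background. The call was lost without any 1 ischemia rat and without control rat 63 or 69, with adjusted p between 0.0129 and 0.0300. RefSeq lists 14 other rat genes named as copies or pseudogenes of Nid2, and whether their RNA binds this probe set was not tested. Nid1, the other nidogen, was 7.66, 7.42 and 7.14 in ischemia rats, against 7.37, 7.76 and 7.50 in control rats, with overlapping groups (log2 fold change -0.13, SE 0.17, limma adjusted p = 0.564).

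The 23 other collagens include those on fibril surfaces, the beaded filament collagen VI chains and those that span the cell membrane. None of the 4 that were tested passed in limma (Col6a1, Col16a1, Col17a1 and Col20a1), and 0 of the 4 had an unadjusted p under 0.05. Every ischemia rat was below every control rat for 6 of the 23 (26.1%), against 19.1% of all genes, and above for 1 (4.35%), against 26.8%, and 16 overlapped. Their median log2 fold change was -0.12.

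Col17a1, a membrane-spanning collagen of the skin, was 7.84, 8.19 and 9.13 in ischemia rats, against 8.25, 8.31 and 9.09 in control rats (log2 fold change -0.16, SE 0.35, limma adjusted p = 0.731). Its groups overlapped throughout. Col20a1 was 7.51, 7.57 and 7.77 in ischemia rats, against 7.88, 7.70 and 7.90 in control rats (log2 fold change -0.21, SE 0.13, limma adjusted p = 0.237). Col6a1, a chain of the collagen VI around many cells, had a log2 fold change of -0.32 (SE 0.15, limma adjusted p = 0.118). Its group means were near background, with the groups apart.

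Some dim collagens stood out in single rats or in their groups, and these were picked after their values were seen. Col25a1, a membrane-spanning collagen of neurons, was 7.80, 7.198 and 6.84 in ischemia rats, against 5.65, 5.75 and 5.44 in control rats, a difference of 1.66 in the log2 means with the groups apart. It exceeded the low-signal limit on fewer than 3 arrays and was past the threshold only when no such limit was set (limma adjusted p = 0.00366). Col19a1 was 5.14, 5.31 and 5.21 in ischemia rats, against 5.66, 9.31 and 5.95 in control rats, so its mean rested on control rat 68. Col8a2 was 6.003, 5.83 and 5.90 in ischemia rats, against 8.36, 6.15 and 7.22 in control rats, with control rat 63 highest.

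Of 24 genes on the array that modify newly made collagen chains 14 were tested, 5 rose and none fell in limma, where 16.8% of all tested genes rose and 5.99% fell, with 2 lower at an unadjusted p under 0.05. Fkbp10, a chaperone of procollagen, was 9.45, 9.59 and 8.85 in ischemia rats, against 6.64, 6.22 and 6.62 in control rats (log2 fold change 2.80, SE 0.22, limma adjusted p = 0.000222). P4hb, the beta subunit of prolyl 4-hydroxylase and also a general protein disulfide isomerase, rose by 1.35 (SE 0.18). Plod3, a lysyl hydroxylase, rose by 0.94 (SE 0.16), P3h4 by 0.82 (SE 0.14) and Ppib, a prolyl isomerase of the endoplasmic reticulum, by 0.61 (SE 0.13). Fkbp10 and P3h4 passed the low-signal limit only through the ischemia rats, so the direction of these calls was not independent of the filter. With ribosomal centring 383 of 9900 tested genes rose, beside 1664 of 9928 as deposited. Single genes outside the members were not read with that centring, here or in the lists below. P4ha1, a catalytic subunit of prolyl 4-hydroxylase, was at -0.11 and Sparc, a collagen-binding matrix protein, at 0.06, and neither passed. P4ha2, another catalytic subunit, named after its values were seen, was 9.21, 8.91 and 9.25 in ischemia rats, against 7.55, 8.53 and 8.36 in control rats, with the groups apart but not past the threshold (log2 fold change 0.98, SE 0.25, limma adjusted p = 0.0163). Serpinh1, the collagen chaperone HSP47, was too dim to be tested, between 5.30 and 5.72 in ischemia rats and between 5.47 and 6.08 in control rats. The other untested genes with groups apart, named after their values were seen, went both ways. Plod2 was higher in every ischemia rat (2.74 in the log2 means). Lox (-0.31), Loxl1 (-0.27), Loxl3 (-0.58) and Colgalt2 (-0.43) were lower in every ischemia rat.

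Of 9 genes on the array that degrade collagen 6 were tested, 4 rose and none fell in limma, beside the same 16.8% and 5.99% of all tested genes, with 0 lower at an unadjusted p under 0.05, and the median log2 fold change of the 9 was 1.06. Mmp14, a membrane-bound collagenase, was 11.73, 12.49 and 12.97 in ischemia rats, against 7.66, 7.62 and 7.55 in control rats (log2 fold change 4.79, SE 0.28, limma adjusted p = 7.74e-05). Ctsk, a collagen-degrading cathepsin, rose by 2.98 (SE 0.21), Mmp9, a gelatinase that cuts collagen IV, by 2.86 (SE 0.54) and Ctsl by 1.04 (SE 0.19). Mmp9 passed the low-signal limit only through the ischemia rats, so the direction of its call was not independent of the filter. Ctsb (0.39) and Mmp2 (0.60) did not pass. Mmp13, Fap and Mmp8 did not enter the test. Every ischemia rat was above every control rat in Mmp13 (2.95 in the log2 means) and Fap (1.055), and the groups overlapped in Mmp8 (0.21).

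Of 11 collagen and laminin receptors 5 were tested and 1 rose, against 16.8% of all tested genes, Itgb1, the beta 1 integrin chain (log2 fold change 0.67, SE 0.13, limma adjusted p = 0.00462). Itga6, a laminin-binding integrin chain, was at -0.13 and Dag1, dystroglycan, at -0.17, and neither passed. Of 11 other basement membrane components 4 were tested. Fbln1, fibulin 1, was 9.29, 10.30 and 10.50 in ischemia rats, against 6.84, 6.68 and 6.84 in control rats (log2 fold change 3.24, SE 0.29). Agrn, agrin, a heparan sulfate proteoglycan that binds laminin, fell by 1.14 (SE 0.21), and both passed in limma (adjusted p = 0.000339 and 0.00394), while Smoc2 at -0.38 and Hspg2, perlecan, at -0.19 did not. Fbln1 passed the low-signal limit only through the ischemia rats, so the direction of its call was not independent of the filter.

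**Figure D4:**
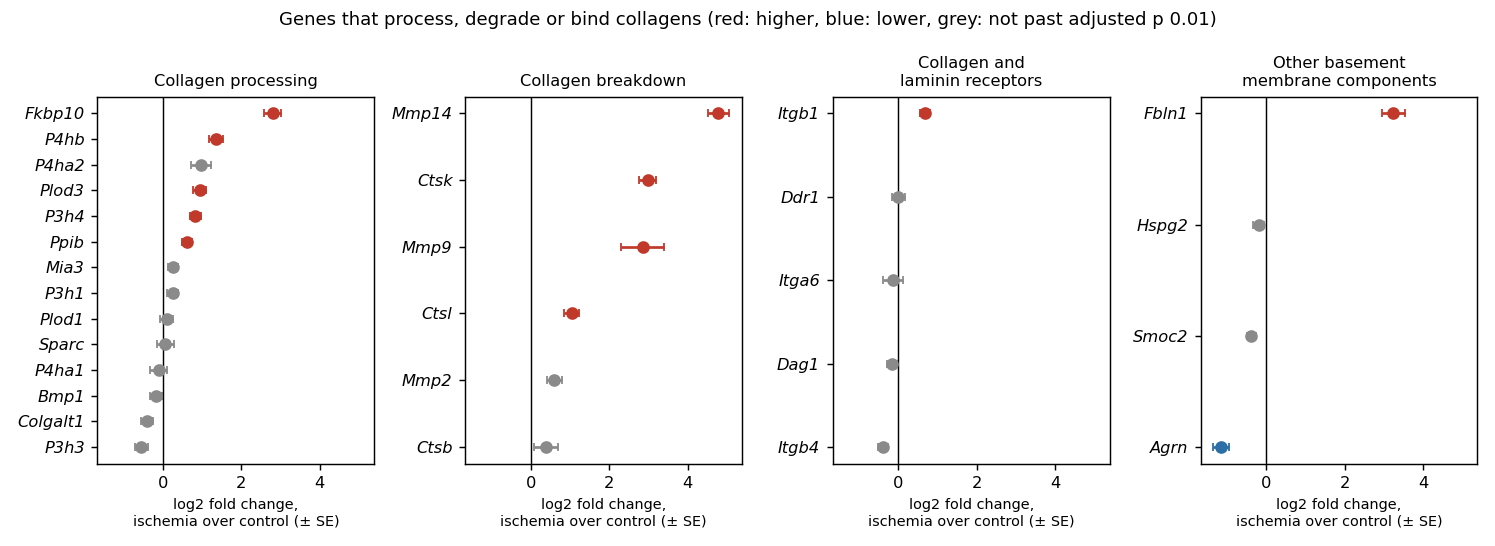
Log2 fold change, ischemia over control, with its standard error for the tested genes that process, degrade or bind collagens or belong to other parts of the basement membrane (red higher and blue lower at a limma adjusted p under 0.01, grey not past it). The largest values are Mmp14 at 4.79, Fbln1 at 3.24 and Ctsk at 2.98, and Agrn is the gene that fell, at -1.14. Fbln1 passed the low-signal limit only through the ischemia rats.

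Markers of other matrix-making cells were read in the same arrays. All 11 border-associated macrophage markers on the array lay above the background level in both groups, with means per rat of 12.62 to 13.34 in ischemia and 12.69 to 13.65 in control, so markers of the labelled cell type were present. Of these Itgam, which with Cd163 was a sorting marker, rose by 2.24 (SE 0.14) and Colec12 fell by 1.95 (SE 0.27). An unadjusted limma p was under 0.05 for 5 of the 11 that were lower and 1 that was higher. The median log2 fold change of these 11 was -0.56, beside -0.59 for the fibroblast markers. Of 14 fibroblast markers 7 were tested and none passed in limma, 2 were lower at an unadjusted p under 0.05, 3 (21.4%, against 19.1% of all genes) had every ischemia rat below every control rat, and 11 had the lower mean in ischemia. Their mean was 6.88, 6.64 and 6.58 in ischemia rats, against 7.61, 7.60 and 6.78 in control rats, so that control rats 63 and 68 stood highest. These rats were also the highest in Col3a1, Col1a1 and Col1a2, whereas control rat 69 was the highest in Col5a1 and Col2a1 and lay above control rat 68 in Col11a2. Dcn, decorin, given as an example, was 7.38, 6.74 and 6.56 in ischemia rats, against 8.22, 9.17 and 6.69 in control rats, and Lum, lumican, 5.57, 5.02 and 4.41, against 6.77, 7.85 and 5.15. Other fibroblast markers had other orders. Islr was 6.84, 8.31 and 7.55 in control rats 63, 68 and 69. Mgp (log2 fold change 0.79), Crabp2 (0.23) and Cdh11 (0.11) had the higher mean in ischemia, with overlapping groups. The part of fibroblast RNA in the fibrillar collagen values was not tested.

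The mean of the 11 fibrillar collagens was 6.68, 6.72 and 6.68 in ischemia rats, against 7.29, 7.19 and 6.997 in control rats. Control rat 63 stood apart in several lists. Its endothelial markers averaged 9.69, against 8.08 and 8.32 in control rats 68 and 69, with 8.20 to 8.43 in ischemia rats. Its mural cell markers averaged 7.41, against 6.67 and 6.73 in the other controls, with 6.75 to 6.88 in ischemia rats. It also had the highest astrocyte and choroid plexus marker means, the highest Col4a1, and a highest array value of 13.85, beside 14.88 to 14.96 on the other arrays. Single markers differed between the groups in limma, where 16.8% of all tested genes rose and 5.99% fell. Of 12 endothelial markers tested, Eng rose (log2 fold change 1.06) and Egfl7 fell (-2.87). Cspg4 rose among 6 mural cell markers tested (1.34) and Gfap among 5 astrocyte markers tested (2.07), and none fell in these 2 lists. None of 3 choroid plexus markers tested passed. Oligodendrocyte markers were lower in every ischemia rat than in any control rat, with means of 7.91, 8.08 and 8.79 in ischemia rats, against 10.78, 9.83 and 9.38 in control rats. All 4 were tested, and in limma Mbp fell by 1.83 (SE 0.24) and Mobp fell by 1.93 (SE 0.36), where 5.99% of all tested genes fell. All 4 markers were lower at an unadjusted limma p under 0.05, which 5014 of all 9928 tested genes reached in either direction. Mog passed the low-signal limit only through the control rats. The means of the 3 monocyte and 5 granulocyte markers on the array were higher in ischemia rats, at 11.59 to 12.74 and 7.83 to 8.52. In control rats they were 9.65 to 10.72 and 6.72 to 7.16. Among the monocyte markers Ly6c had the largest log2 fold change (4.68), while the groups overlapped in Ccr2 (0.43). Among the granulocyte markers Cxcr2 alone had the lower mean in ischemia (log2 fold change -0.50), with overlapping groups. The part of these cell types in the differences of the matrix genes was not tested. Col18a1 was the only member past the threshold without control rat 63, and likewise without ischemia rat 65 or without ischemia rat 66.

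**Figure D5:**
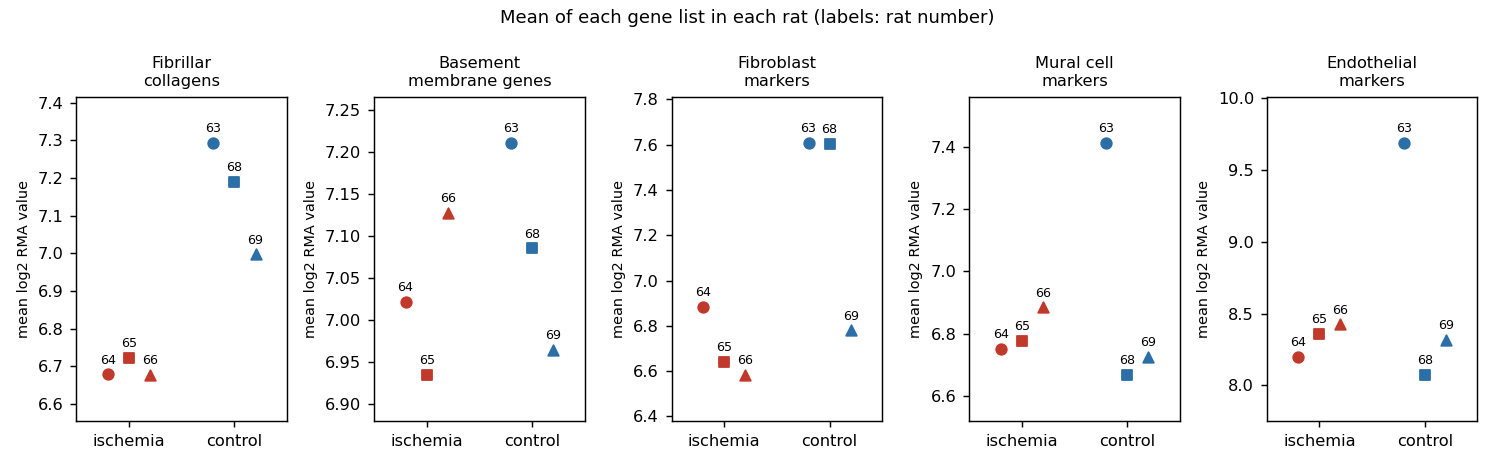
Mean log2 RMA value (y axis, with its own range in each panel) of the fibrillar collagens, the basement membrane genes and 3 lists of cell type markers in each rat, with ischemia rats in red and control rats in blue. Control rats 63 and 68 are highest in fibrillar collagens and fibroblast markers, and control rat 63 alone is highest in mural cell and endothelial markers.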

How the data were processed

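The deposited values were log2 expression values that the authors made from Affymetrix rat genome arrays with RMA, and the submitters' processing notes name limma 3.18 and R 3.3.1. No sample was pooled. Of 31099 probe sets, 20826 carried exactly 1 symbol in GEO's platform annotation, and the probe set of highest mean stood for each gene. All 53 members matched RefSeq by gene ID. Genes with at least 3 arrays above the 40th percentile of all values (7.16) were tested with limma 3.58.1 (R 4.3.3), ischemia minus control, 2-sided, with Benjamini-Hochberg adjustment over the 9928 genes, and called at an adjusted p under 0.01. The script was tested on simulated data. Values in every rat are given for each member past that threshold, for each above the background level in 1 group, and for 8 named matrix genes, and other members by range and count. Members, gene lists and tests were chosen with earlier results of these data known. P-values measure the spread between rats. The alternatives changed the filter, the probe set rule, the scaling, the moderation and the threshold, and left out each rat.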

Additional observations from a re-analysis of the deposited data

How the results depend on the processing

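Col18a1, Col15a1, Lamb2, Nid2 and Col3a1 kept their direction under every alternative in which they were tested, and 197 of 248 results for single genes kept both direction and side of the threshold (33 lost it, 12 gained it, 6 reversed). As deposited, 2 members rose (both of the basement membrane) and 3 fell (1 fibrillar, 2 of the basement membrane). Without a low-signal filter 2 rose (1 of the basement membrane) and 1 fell (0 fibrillar, 1 of the basement membrane), and with a filter at the 60th percentile 0 rose and 1 fell (0 fibrillar, 1 of the basement membrane). With arrays centred on ribosomal protein genes, 0 rose and 7 fell (5 fibrillar), and the same counts came from a narrower list of those genes, added after the first was seen. With the quantile normalization repeated 1 fell (0 fibrillar, 1 of the basement membrane), and with median centring 1 basement membrane gene fell. Array weights gave 2 fibrillar genes that fell. Without moderation of the variance 0 rose and 0 fell in either group, and the lowest adjusted p of any gene was 0.0101, although 4478 genes and 8 members had an unadjusted p under 0.05. At an adjusted p under 0.05, 8 fell (5 fibrillar), and with a log2 fold change beyond 2 added, 0 rose and 0 fell. Leaving out 1 rat gave 1 to 2 members that rose (1 to 2 of the basement membrane), 0 to 3 that fell, 0 to 3 fibrillar genes that fell and 0 to 1 basement membrane genes that fell. Col17a1 lay between -0.54 and 0.11 when 1 rat was left out and reversed without ischemia rat 64 (0.11) and without control rat 69 (0.11), and Col4a1 and Col4a2 reversed with ribosomal centring (-0.20 and -0.018) and with the narrower list (-0.18 and -0.0029). Members near background numbered 40 to 43 when 1 rat was left out and 28 or 49 with the 75th or 95th percentile. The cause of these differences was not tested. No paired analysis was possible because the groups share no replicate number. Most members lie near background, where fold changes are understated.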
